A study of Homo sapiens with 4 samples.

Results

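Antiviral interferon-stimulated genes encode the proteins with which a cell meets a virus, such as sensors of viral RNA, nucleases, membrane proteins that hold virus back, and the ubiquitin-like protein ISG15. A list of 54 of them, written by gene symbol and grouped by role, was followed through the 46427 genes counted in SNU638 cells, a long-established line from a human gastric cancer. The cells carried a control vector or a vector for YTHDF1, a reader of N6-methyladenosine on RNA that was FLAG-tagged in the study's plasmid, with 2 biological replicates of each. All 4 libraries came from cells kept in medium without serum for 24 h and then given IFN-γ at 10 ng/ml, for 8 h by the sample labels, whereas the study's figure legends give 24 h. No untreated cells were analysed here, so the values show levels under IFN-γ and not induction. The labels number the replicates 1 and 2 in each group and say nothing more of what a number stands for, and the study's methods describe plasmids as transfected with a reagent, without saying this of these libraries in particular.

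Interferons of type I and type III act through JAK1 and TYK2 on a complex that holds STAT2 and IRF9 and binds the interferon-stimulated response element (ISRE). IFN-γ, the type II interferon, acts through JAK1 and JAK2 on genes with a gamma-activated site (GAS), and induces IRF1, a factor that also recognises ISRE-like letters. Many antiviral genes therefore answer both kinds of signal, while others depend more on one of them.

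Total counts lay between 57398137 and 60864942 per library, and each of the 54 genes had at least 185 counts in every library and passed the filter on low counts. CPM below are read counts scaled to a common library size, after TMM normalization of the libraries. YTHDF1 itself stood at 82.2 and 80.3 CPM with the control vector (replicates 1 and 2) and at 16494.5 and 2628 CPM with its own vector, so the YTHDF1 libraries carried the vector's gene but differed 6.28-fold between themselves. The libraries numbered 2 stood apart from those numbered 1 across the transcriptome: of 17781 genes tested, 1771 were higher and 2888 lower. Epithelial markers were present in all libraries, with KRT8 at 2081 to 3818 CPM and EPCAM at 242 to 284 CPM, while CLDN4 stood at 55.0 and 56.6 CPM in the libraries numbered 1 and at 0.934 and 0.994 CPM in those numbered 2. Leukocyte markers PTPRC, CD3E, CD14 and LYZ were between 0 and 0.690 CPM, and of the stromal and endothelial markers COL1A2 was at 0 in all libraries and COL1A1 at 5.69 to 10.9 CPM.

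The antiviral genes together took 0.931% of all counts in control replicate 1, 0.922% in YTHDF1 replicate 1, 1.25% in control replicate 2 and 1.23% in YTHDF1 replicate 2. YTHDF1's own reads made up 1.66% of YTHDF1 replicate 1. With them left out of the totals, the share was 0.931% in control replicate 1 and 0.938% in YTHDF1 replicate 1. It was then 1.25% in control replicate 2 and 1.235% in YTHDF1 replicate 2. Either way the share of the antiviral genes was close between the vectors of the same number and higher in both libraries numbered 2. RNF213, a giant ubiquitin ligase with a long transcript, supplied 16.5% to 22.6% of these counts. Per kilobase of exon, taken from the basic transcripts of GENCODE 29 and therefore approximate, IFITM1 had the highest mean level with 354 CPM per kb, before IFITM3 with 294, LAP3 with 245 and UBE2L6 with 213. At the other end stood MX2 with 2.08 CPM per kb, SAMD9L with 2.55 and IFI16 with 3.44.

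To ask whether YTHDF1 changed the antiviral genes, YTHDF1 libraries were compared with control libraries. A gene was called where its log2 fold change was at least 0.5 in size and its p under 0.05 in edgeR's quasi-likelihood test. With an unadjusted p, 0 of the 54 genes were called in either direction, against 0.0225% of all genes tested called higher and 0.0787% called lower. With Benjamini-Hochberg adjusted p the count was 0 of 54 against 0% of all genes in each direction. With an unadjusted p under 0.05 and a fold change of any size it was 0 of 54, against 0.0394% higher and 0.0956% lower. The median log2 fold change over the 54 genes was -0.0035, against 0.0046 over all genes tested, and the largest in size was 0.20.

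The smallest p among the antiviral genes belonged to PLSCR1, a phospholipid scramblase that restricts virus entry, with 92.6 and 110 CPM for the control vector (replicates 1 and 2) and 104 and 112 CPM for the YTHDF1 vector. Its ranges overlapped, and the log2 fold change was 0.09 (SE 0.12; edgeR quasi-likelihood test, unadjusted p = 0.503). ISG15, whose product is joined to other proteins, was at 182 and 172 CPM in control and at 183 and 181 CPM with YTHDF1, a log2 fold change of 0.04 (SE 0.08; edgeR, unadjusted p = 0.643). Both vectors thus held nearly the same level of ISG15. IFIT2, an RNA-binding protein, was at 57.9 and 54.6 CPM in control and 62.1 and 56.1 CPM with YTHDF1, a log2 fold change of 0.07 (SE 0.10), and DDX60, a helicase, had one of 0.05 (SE 0.11). IFI44L had the largest difference, -0.20, with an SE of 0.84, and MX2, a dynamin-like GTPase that acts on the nuclear import of viruses, had -0.18 with an SE of 0.80.

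The SE of the vector difference ran from 0.07 to 1.40 over the 54 genes with a median of 0.27, since the spread within each vector contains the difference between the numbers. A count of 0 therefore does not show that the genes were equal in both vectors. SHISA5, a membrane protein linked to cell death, was the 1 gene whose YTHDF1 libraries, at 212 and 220 CPM, both lay above control, at 210 and 207 CPM. That is 1.85% of the antiviral genes, against 5.67% of all genes tested with groups that did not overlap in that direction, and 0 of 54 lay wholly lower, against 5.83%.

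Within each replicate number, where 1 library stands against 1 and no test is possible, the vectors were also close. Within replicate 1 the median log2 difference, YTHDF1 minus control, was 0.05, and 41 of 54 genes (75.9%) were higher with YTHDF1, against 52.4% of all genes tested. Within replicate 2 the median was -0.04 and 12 of 54 (22.2%) were higher, against 49.0% of all genes. The small differences thus leaned one way in replicate 1 and the other way in replicate 2. Of the 54 genes, 32 were higher with YTHDF1 in replicate 1 and lower in replicate 2, and 3 did the reverse, so 64.8% had opposite signs against 48.3% of all genes. Genes controlled together are not independent, so these counts are a description.

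Differences over 0.25 in size within at least 1 number were found for 3 of the 54 genes, against 5889 of the 17781 genes tested. Of the 13993 protein-coding genes tested, 3221 had such a difference. The 54 genes had at least 185 counts in every library, whereas genes tested included some with few counts, such as IFNL3 with 8 in control replicate 1. Few counts give large differences between single libraries, so these shares are not matched for depth. IFI16, a DNA sensor, went from 3.87 CPM (control) to 5.37 CPM (YTHDF1) within replicate 1, a log2 difference of 0.47, and was at 15.4 and 15.7 CPM in the libraries numbered 2. IFI44L differed by -0.29 within replicate 2, between 36.7 CPM (control) and 30.0 CPM (YTHDF1). HERC5 differed by -0.31 within replicate 2, between 3.81 and 3.06 CPM. In each of the 3 genes the other pair of libraries differed by less than 0.25.

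**Figure D1:**
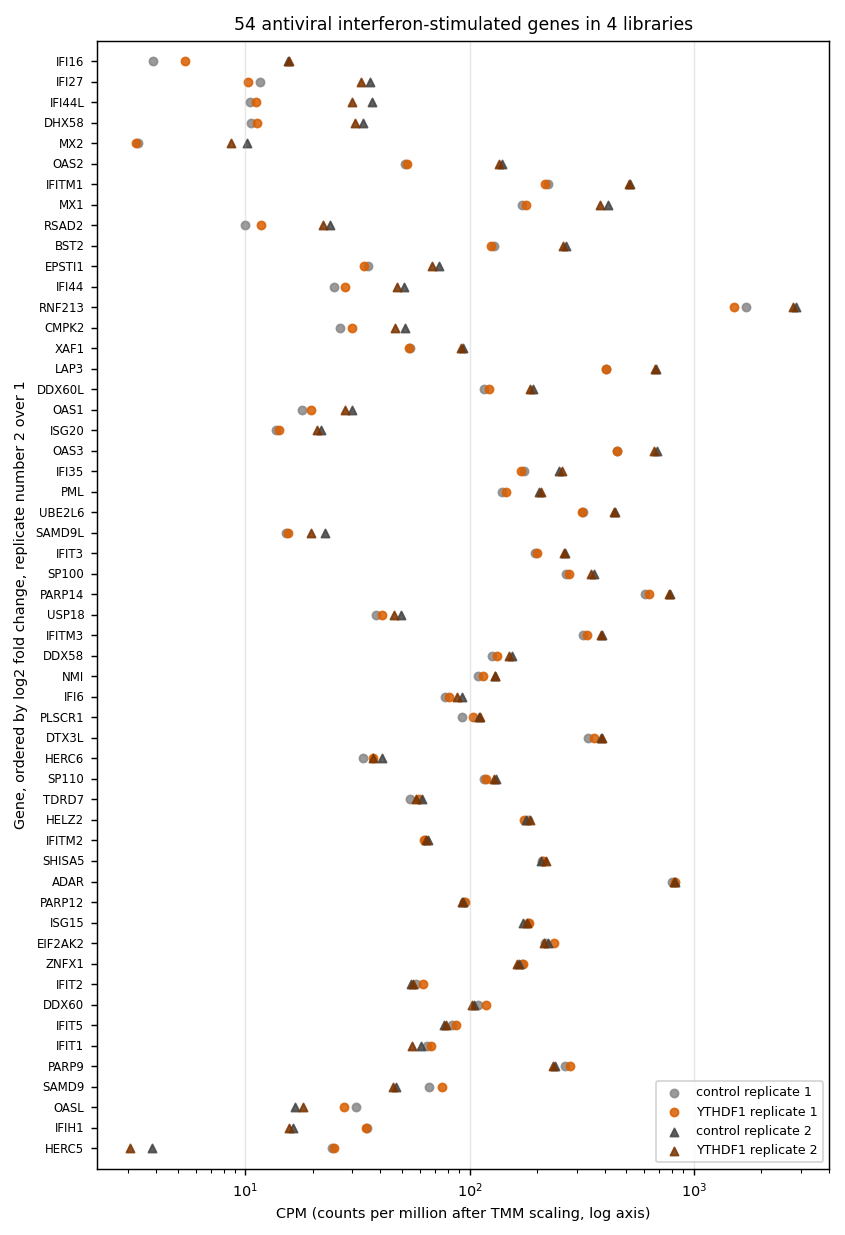
CPM of the antiviral genes in the 4 libraries on a log axis, with a point for each library; circles are the libraries numbered 1, triangles those numbered 2, greys control, and orange and brown YTHDF1. Points of the same number lie close together for both vectors, from HERC5 at 3.06 CPM to RNF213 at 2863 CPM, while circles and triangles part for many genes.

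The difference between the replicate numbers, 2 minus 1, was fitted over the same 4 libraries. Of the 54 antiviral genes, 22 (40.7%) were called higher in the libraries numbered 2 (log2 fold change of at least 0.5 and adjusted p under 0.05 by edgeR's quasi-likelihood test), against 9.96% of all genes tested. Lower calls numbered 4 (7.41%), HERC5, IFIH1, OASL and SAMD9, against 16.2% of all genes, and 28 genes were not called. The same shares over all genes stand beside the counts by role below. The median log2 difference was 0.30, with 0.37 in control and 0.26 in YTHDF1, against -0.01 over all genes tested. The SE ran from 0.03 to 0.14 with a median of 0.05. Each number held a control and a YTHDF1 library, so the SE and p of this comparison rest on the spread between vectors within a number. If libraries of a number share a culture or day, they are not independent, and the spread between cultures is not measured. With an adjusted p under 0.05 and a fold change of any size, 35 were higher and 7 lower, against 23.6% and 29.1% of all genes. Libraries of different numbers did not overlap for 37 genes that were higher and 12 that were lower, against 36.8% and 40.4% of all genes.

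For 53 of the 54 genes (98.1%) the difference between numbers was larger in size than the difference between vectors, against 83.3% of all genes tested. Since nothing in the labels says what the numbers mark, culture, day, handling and cell state cannot be told apart for these differences, and in bulk RNA fewer cells of a type and less RNA per cell cannot be told apart either. The part that the YTHDF1 level of the 2 YTHDF1 libraries has in the values was not tested. All 22 higher and all 4 lower genes had the same direction in control libraries as in YTHDF1 libraries. These genes were called from both vectors together, which favours a shared direction, so the count is a description.

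**Figure D2:**
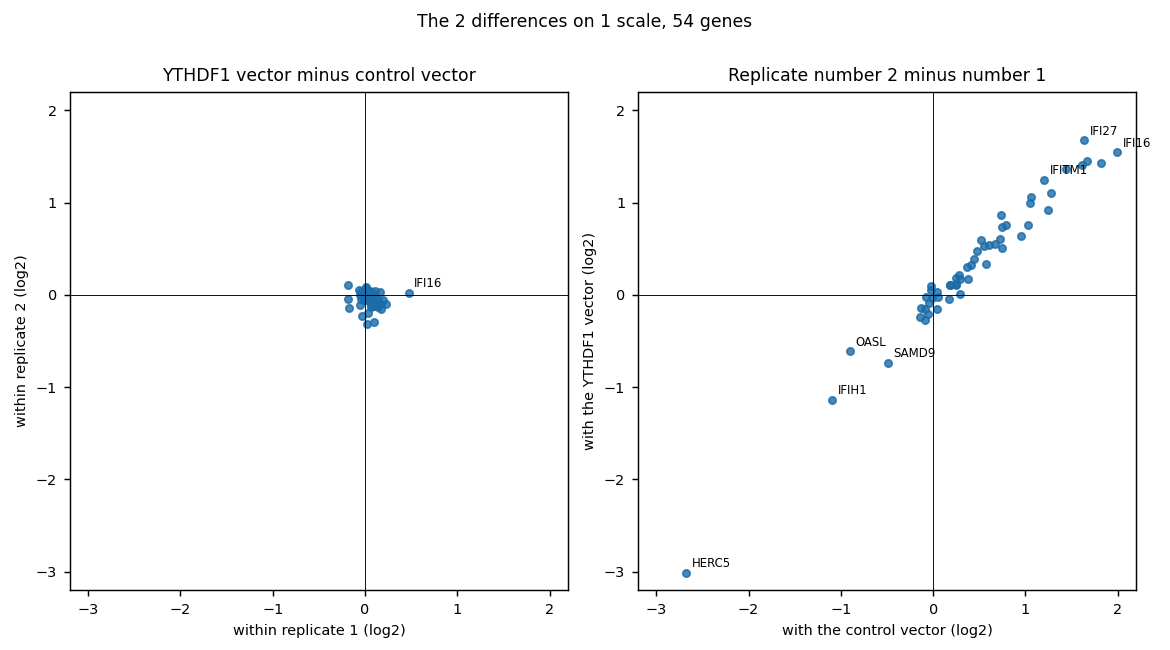
Log2 differences of the 54 genes on equal axes: left, YTHDF1 minus control within replicate 1 (x) and replicate 2 (y); right, number 2 minus number 1 with the control vector (x) and the YTHDF1 vector (y). Each point is a gene; the left points sit near 0, within 0.47 in size, and the right points stretch from -3.01 for HERC5 to above 1.5 for IFI16 and IFI27.

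Among the RNA-binding IFIT proteins, which recognise foreign RNA ends and form complexes with each other, 0 of 4 were called. IFIT1 was at 64.5 CPM in control replicate 1, 67.2 in YTHDF1 replicate 1, 60.8 in control replicate 2 and 55.5 in YTHDF1 replicate 2, a log2 difference between numbers of -0.18 (SE 0.06). IFIT3, which stabilises IFIT1, was at 197 and 200 CPM in the libraries numbered 1 and 266 and 262 CPM in those numbered 2, and its difference of 0.41 (SE 0.04; adjusted p = 1.83e-05) lay under the fold threshold. IFIT2 and IFIT5 differed by -0.12 and -0.14. IFIT1 and IFIT3 are neighbours on chromosome 10, and the log2 ratio of IFIT1 to IFIT3 was -1.61 and -1.57 in the libraries numbered 1 and -2.13 and -2.24 in those numbered 2.

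Membrane proteins, some of which block fusion, entry or release of virus, gave 3 of 8 called higher and 0 lower. IFITM1, which blocks fusion at the cell surface, was at 225 and 217 CPM in the libraries numbered 1 (control, YTHDF1) and 518 and 516 CPM in those numbered 2, a log2 difference of 1.23 (SE 0.03; edgeR adjusted p = 2.15e-08). BST2, or tetherin, which holds budding virions at the surface, was at 128 and 124 CPM against 269 and 260 CPM, a difference of 1.06 (SE 0.04; adjusted p = 1.1e-07). For IFI27, a small hydrophobic protein of mitochondria and other membranes, the values were 11.6 and 10.2 CPM against 36.1 and 32.7 CPM, a 3.15-fold difference (log2 1.66, SE 0.08). In each of the 3 genes both libraries numbered 2 lay above both numbered 1.

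The other genes of this group, some of them close relatives, differed less. IFITM3, which acts in endosomes, was at 320 and 333 CPM in the libraries numbered 1 and 388 and 385 CPM in those numbered 2, a log2 difference of 0.24 (SE 0.03). IFITM2 was at 63.3, 62.7, 65.4 and 63.9 CPM in control 1, YTHDF1 1, control 2 and YTHDF1 2, a difference of 0.04 (SE 0.04; adjusted p = 0.503). The log2 ratio of IFITM1 to its neighbour IFITM2 therefore went from 1.83 and 1.79 to 2.99 and 3.01. IFITM reads can fall on more than 1 of these similar genes, and how the authors' counting placed them is not given in the sources used here. IFI6, a relative of IFI27, differed by 0.18 (78.0 and 81.1 against 92.7 and 87.9 CPM), PLSCR1 by 0.17 and SHISA5 by 0.02.

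The sensors went in both directions, with 3 of 8 higher and 1 lower. IFIH1, or MDA5, the sensor of long double-stranded RNA, was at 34.7 and 34.5 CPM in the libraries numbered 1 and 16.3 and 15.7 CPM in those numbered 2, a log2 difference of -1.11 (SE 0.06; edgeR adjusted p = 1.19e-06). DHX58, or LGP2, which lacks the signalling domains of the other helicases and modulates them, was at 10.5 and 11.2 CPM against 33.5 and 30.9 CPM, a difference of 1.56 (SE 0.07; adjusted p = 5.15e-07). DDX58, or RIG-I, the sensor of short RNA with uncapped ends, was at 126 and 133 CPM against 154 and 150 CPM, a difference of 0.23 (SE 0.04). The 3 relatives thus differed in opposite directions, and the log2 ratio of IFIH1 to DHX58 was 1.72 and 1.62 in the libraries numbered 1 and -1.04 and -0.98 in those numbered 2.

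IFI16 had the largest upward difference of the 54 genes, 3.37-fold (log2 1.75, SE 0.14; adjusted p = 1.36e-05), at the low level given above. DDX60L, a helicase, was called higher by 0.67 (116 and 122 against 191 and 186 CPM), whereas its neighbour DDX60 was at 109 and 118 against 105 and 103 CPM, a difference of -0.13 (SE 0.05). HELZ2 and ZNFX1 differed by 0.04 and -0.07.

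Of the enzymes that act on double-stranded RNA and on nucleotides, 6 of 9 were called higher and 1 lower. OAS1, OAS2 and OAS3 make short oligoadenylates when they bind double-stranded RNA. OAS2 was at 51.5 and 52.6 CPM in the libraries numbered 1 and 140 and 136 CPM in those numbered 2, a log2 difference of 1.40 (SE 0.04; edgeR adjusted p = 3.65e-08). OAS1 was at 17.8 and 19.5 CPM against 30.0 and 27.8 CPM, 0.63 higher (SE 0.07), and OAS3 differed by 0.57. OASL, which has lost the enzyme activity and works with RIG-I, went the other way, at 31.2 and 27.5 CPM against 16.7 and 18 CPM, a difference of -0.76 (SE 0.08; adjusted p = 7.14e-05). OAS1 stood below OASL in the libraries numbered 1, with a log2 ratio of CPM of -0.81 and -0.49, and above it in those numbered 2, with 0.84 and 0.63.

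RSAD2, or viperin, which makes a nucleotide that stops viral RNA synthesis, was at 9.99 and 11.7 CPM against 23.8 and 22.2 CPM, a log2 difference of 1.08 (SE 0.09; edgeR adjusted p = 1.86e-05). Its neighbour CMPK2, a nucleotide kinase, differed by 0.79, and ISG20, an exonuclease, by 0.61. EIF2AK2, or PKR, which stops translation, was at 217 and 238 CPM in the libraries numbered 1 and 223 and 214 CPM in those numbered 2 (log2 difference -0.06, SE 0.05; adjusted p = 0.360). ADAR, which edits adenosine to inosine, was at 800 and 828 CPM against 828 and 818 CPM (0.02, SE 0.05; adjusted p = 0.783). The values of EIF2AK2 and ADAR overlapped between numbers and between vectors.

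All 4 dynamin-like GTPases and relatives were called higher in the libraries numbered 2. MX1, which traps viral ribonucleoproteins, was at 171 and 179 CPM in the libraries numbered 1 and 414 and 383 CPM in those numbered 2, a log2 difference of 1.19 (SE 0.05; edgeR adjusted p = 1.46e-07). MX2 was at 3.31 and 3.24 CPM against 10.1 and 8.63 CPM, 1.51 higher (SE 0.13). IFI44L was at 10.4 and 11.1 CPM against 36.7 and 30.0 CPM, 1.63 higher (SE 0.10), and IFI44 differed by 0.90. The median of the 4 genes was 1.35, the highest of the role groups.

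ISG15 conjugation gave 0 of 5 higher and 1 lower. ISG15 stood at 182 and 183 CPM in the libraries numbered 1 and 172 and 181 CPM in those numbered 2 (log2 difference -0.05, SE 0.04; edgeR adjusted p = 0.366). HERC5, the ligase that joins ISG15 to new proteins, was at 24.4 and 24.8 CPM against 3.81 and 3.06 CPM, 7.16-fold lower (log2 -2.84, SE 0.11; adjusted p = 1.38e-07), the largest difference of the 54 genes. Its neighbour HERC6 was at 33.5 and 37.0 CPM against 40.8 and 37.2 CPM (0.15, SE 0.07; adjusted p = 0.116), so the log2 ratio of HERC5 to HERC6 went from -0.46 and -0.58 to -3.42 and -3.60. UBE2L6, the enzyme that hands ISG15 to the ligase, differed by 0.47 (SE 0.03). USP18, which removes ISG15 and damps type I interferon signalling, was at 38.0 and 40.7 CPM against 49.4 and 46.0 CPM, a difference of 0.28 (SE 0.06).

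Of the PARP family and its partner, 0 of 4 were called. PARP9, which works with the ligase DTX3L, was at 267 and 280 CPM in the libraries numbered 1 and 241 and 237 CPM in those numbered 2 (log2 difference -0.19, SE 0.04), while DTX3L differed by 0.15. PARP14 was at 608 and 628 CPM against 782 and 775 CPM (0.33, SE 0.04) and PARP12 differed by -0.02. Among nuclear body proteins PML, the body's scaffold, was called higher by 0.54, whereas SP100 differed by 0.37 and SP110 by 0.14, with 116 and 118 CPM against 131 and 128 CPM.

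The other effectors gave 5 of 9 higher and 1 lower. SAMD9, which restricts poxviruses, was at 66.1 and 75.6 CPM in the libraries numbered 1 and 47.0 and 45.4 CPM in those numbered 2, a log2 difference of -0.62 (SE 0.07; edgeR adjusted p = 8.21e-05). Its neighbour SAMD9L was at 15.2 and 15.5 CPM against 22.5 and 19.6 CPM, a difference of 0.46 (SE 0.08; adjusted p = 0.00173) that lay under the fold threshold. The log2 ratio of SAMD9 to SAMD9L was 2.12 and 2.28 in the libraries numbered 1 and 1.06 and 1.21 in those numbered 2. XAF1, which promotes cell death, was at 54.1 and 53.8 CPM against 93.6 and 91.2 CPM, 0.78 higher (SE 0.04). EPSTI1, RNF213, LAP3 and IFI35 were higher by 1.03, 0.80, 0.74 and 0.56, and NMI and TDRD7 differed by 0.21 and 0.06.

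**Figure D3:**
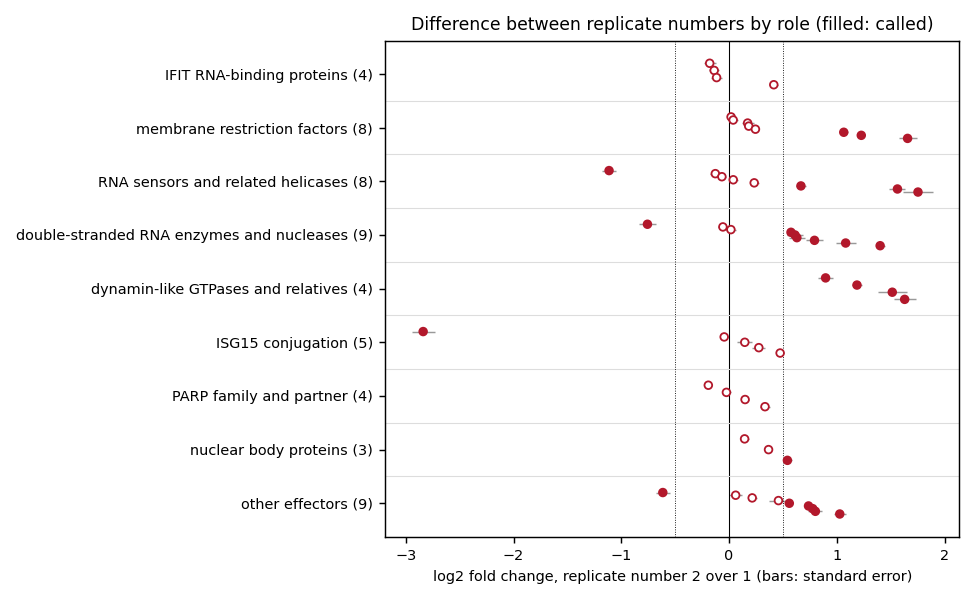
Log2 difference between replicate numbers (2 minus 1) for each gene, grouped by role; each dot is a gene, filled dots passed the fold and adjusted p thresholds, grey bars are the SE and the dotted lines mark 0.5 in either direction. All 4 dynamin-like GTPases and relatives lie to the right, from 0.90 to 1.63, and HERC5 lies alone at -2.84.

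Neighbouring genes on a chromosome did not always go together. Within 100 kb of each other lay 24 of the 54 genes, in 10 clusters (coordinates of RefSeq on GRCh38.p14). On chr4:88378852-88506163 HERC6 and HERC5 differed by 0.15 and -2.84, and on chr7:93099518-93148385 SAMD9 and SAMD9L by -0.62 and 0.46. PARP9 and DTX3L, at -0.19 and 0.15, and DDX60 and DDX60L, at -0.13 and 0.67, also had opposite signs, and the 4 IFIT genes lay between -0.18 and 0.41. On chr11:307816-320860 the 3 IFITM genes lay between 0.04 and 1.23. All genes of the other 4 clusters were called higher, among them those of chr12:112906962-113011723 (OAS1, OAS3 and OAS2, between 0.57 and 1.40) and of chr21:41362027-41459214 (MX2 and MX1, 1.51 and 1.19). Some of the genes overlap others: the 4 IFIT genes overlap the annotated span of LIPA, IFI16 overlaps AIM2 and PYDC5, EIF2AK2 overlaps GPATCH11, SP110 overlaps SP140, and RSAD2 with CMPK2 and PARP9 with DTX3L overlap each other. The libraries were stranded, but the strand setting of the authors' counting is not given, so reads in these overlaps are uncertain.

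**Figure D4:**
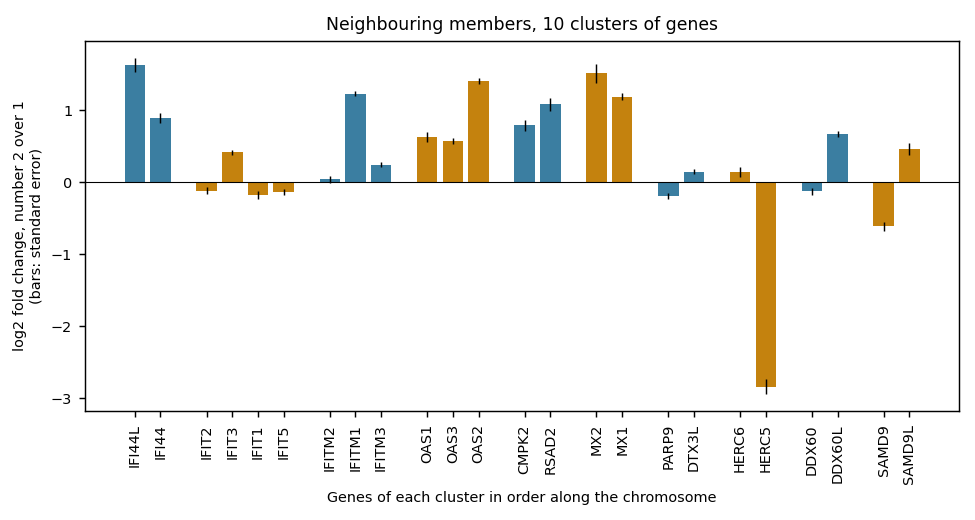
Log2 difference between replicate numbers (2 minus 1) of the 24 genes that lie in 10 clusters, with the genes of a cluster next to each other and colours alternating between clusters. Bars start at 0 and thin lines are the SE; neighbours part most in HERC6 and HERC5, at 0.15 and -2.84, and lie close in MX2 and MX1, at 1.51 and 1.19.

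Because many antiviral genes answer interferon through an ISRE or a GAS, the letters of the members' promoters were read. The promoters came from RefSeq (GRCh38.p14, 250 bases before to 50 after the start). Promoters were found for 45 of the 54 genes, and IFIT2, IFITM2, DHX58, ZNFX1, OAS2, OASL, MX2, USP18 and PML had no entry. The ISRE letters (GAAA, any 2 bases and GAAA, or TTTC, any 2 bases and TTTC for the other strand) were in 27 of 45 (60%), against 3.65% of 27305 promoters of the same length. The GAS letters (TTC, any 3 bases and GAA), which read the same on both strands, were in 10 of 45 (22.2%), against 7.88%. Both were in 8 (17.8%), against 0.428%, and the matches overlapped in 4 of these, IFITM1, BST2, IFI27 and EPSTI1.

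Genes with ISRE letters went in each direction. The windows below are shown for the 3 lower genes that have a promoter entry, for 4 of the higher genes and for ISG15 and IFIT1, which were not called; each reads 5′ to 3′ along the gene's strand, with 1 match to the ISRE letters in capitals; a further match, as in IFIT1, BST2 and ISG15, is left in lower case where it lies outside the capitals. The lower genes were HERC5 (chr4:88457025-88457074, + strand), IFIH1 (chr2:162318685-162318725, - strand) and SAMD9 (chr7:93118086-93118135, - strand). The higher genes were IFITM1 (chr11:313980-314029, + strand), BST2 (chr19:17405725-17405774, - strand), IFI44L (chr1:78620355-78620404, + strand) and EPSTI1 (chr13:42992262-42992311, - strand). ISG15 is shown at chr1:1013370-1013419 and IFIT1 at chr10:89392500-89392549, both on the + strand.
HERC5: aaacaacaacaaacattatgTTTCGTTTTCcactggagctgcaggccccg
IFIH1: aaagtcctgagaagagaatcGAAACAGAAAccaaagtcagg
SAMD9: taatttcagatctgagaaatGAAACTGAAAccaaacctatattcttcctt
IFITM1: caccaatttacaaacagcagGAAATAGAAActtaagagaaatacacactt
BST2: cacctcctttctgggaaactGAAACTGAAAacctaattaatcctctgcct
IFI44L: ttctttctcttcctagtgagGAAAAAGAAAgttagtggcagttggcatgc
EPSTI1: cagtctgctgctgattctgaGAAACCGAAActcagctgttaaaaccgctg
ISG15: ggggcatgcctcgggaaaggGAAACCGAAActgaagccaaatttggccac
IFIT1: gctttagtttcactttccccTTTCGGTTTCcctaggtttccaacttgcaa

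Of the 27 genes with ISRE letters, 11 were called higher, 3 lower and 13 neither in the comparison of numbers, with a median log2 difference of 0.24, and of the 18 without them 7 were higher, 0 lower and 11 neither, with a median of 0.41. Of the 10 genes with GAS letters 6 were higher, 0 lower and 4 neither (median 0.59), and of the 35 without 12 were higher, 3 lower and 20 neither (median 0.23). A match of letters is a description of the window and not a bound site.

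Genes that lie before the antiviral genes in the pathway were read from lists of the same kind. The lists are short, and no test of their counts was made. Of all genes tested, 9.96% were called higher and 16.2% lower between the numbers. Of 10 interferon ligands, 4 were at 0 in all 4 libraries, IFNG among them, and 4 passed the filter on low counts. IFNB1 had 5 counts in control replicate 1, 2 in YTHDF1 replicate 1, 4 in control replicate 2 and 6 in YTHDF1 replicate 2. IFNL1, a type III interferon, had 14 and 22 counts in the libraries numbered 1 and 50 and 49 in those numbered 2, a log2 difference of 1.47 (edgeR adjusted p = 0.00836), and IFNE differed by 0.87; IFNL2 and IFNL3 passed the filter and were not called. Reads of the similar IFNL genes may be shared among them.

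Of 6 receptor subunits 0 were called, and the transcripts of IFNGR1, at 34.1 and 33.1 CPM in the libraries numbered 1 and 31.7 and 30.5 CPM in those numbered 2, differed by -0.11. Of 8 kinases and transcription factors 2 were called higher and 0 lower. IRF7, the factor that amplifies type I interferon, was at 44.9 and 45.1 CPM against 80.8 and 82.3 CPM (log2 difference 0.86), and JAK2 differed by 0.63. IRF1 and STAT2 differed by 0.37 and 0.20, and IRF9, the ISRE-binding partner of STAT2, by 0.05. The median size of the difference between the numbers was 0.29 over these 8 genes. It was 0.47 over the 54 antiviral genes and 0.31 over all genes tested. IRF7 and JAK2 lay above each of these medians.

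Of 6 genes for sensing, its adaptors and kinases, 1 was called higher and 2 lower, against 9.96% and 16.2% of all genes tested. CGAS, the sensor of cytosolic DNA, was at 28.8 and 30.6 CPM in the libraries numbered 1 and 69.3 and 66.7 CPM in those numbered 2 (log2 difference 1.19), whereas STING1, the adaptor it signals to, was at 9.25 and 9.65 CPM against 0.176 and 0.199 CPM, 49.8-fold lower. MAVS, the adaptor of RIG-I and MDA5, was at 154 and 157 CPM against 108 and 106 CPM (-0.54). In the vector comparison 0 genes of the ligand, receptor, factor and adaptor lists had an unadjusted p under 0.05 in edgeR's quasi-likelihood test.

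**Figure D5:**
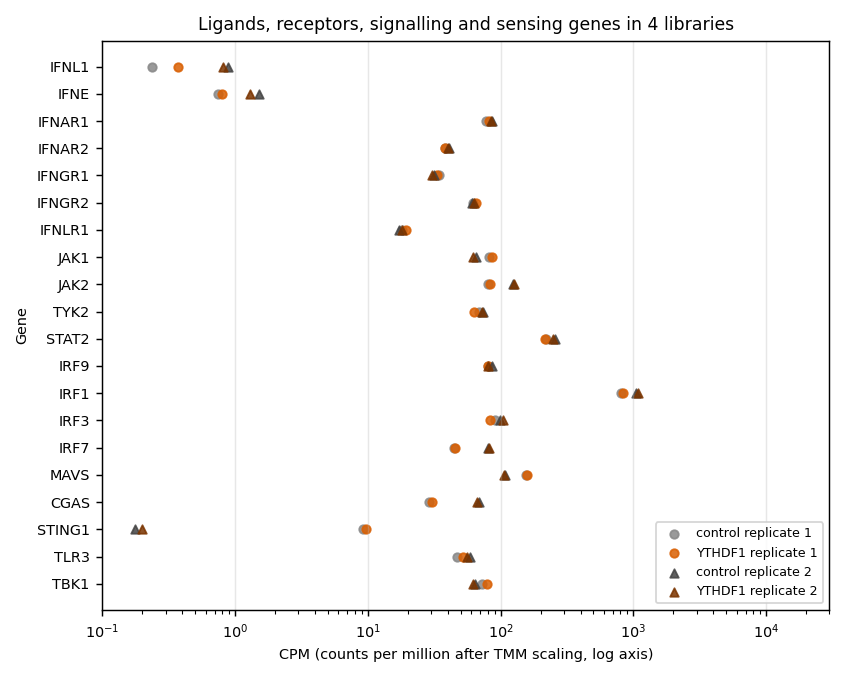
CPM of ligands, receptors, factors and sensing genes in the 4 libraries on a log axis; circles are the libraries numbered 1, triangles those numbered 2, greys control, and orange and brown YTHDF1. STING1 falls from above 9 CPM in the circles to 0.176 and 0.199 CPM in the triangles, and the receptors keep close together.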

How the data were processed

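RNA was measured by sequencing of stranded poly(A) libraries from SNU638 cells, 2 control and 2 YTHDF1. The authors deposited counts of reads per gene without normalization. The submitters' processing notes name Trimmomatic, HISAT2 and GRCh38, and their versions, the counting tool, its strand setting and the annotation are not given in the sources used here. Every per-sample column was used.

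Genes kept by filterByExpr (17781) were scaled by TMM and tested with edgeR 4.0.16 (quasi-likelihood test) in R 4.3.3, with Benjamini-Hochberg adjustment over all of them and thresholds of 0.5 (log2) and 0.05 (p). The SE is the absolute log2 difference divided by the square root of edgeR's F statistic. Differences within a replicate number, and between numbers within a vector, are of log2 CPM with a prior count of 0.5. The labels name the libraries as biological replicates, and on that basis each is 1 sample; replicates of a vector were not copies of 1 library (chi-square per degree of freedom 136 and 167), which does not test their independence, and p-values measure only the spread between these samples, which may be technical. Counting intervals and floors would cover counting error only.

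The members, lists and roles were chosen with earlier results of these data known. Named genes were leading members of each role, the members with the smallest p between vectors, up to 5 in each direction, and those with the largest called differences between numbers; SHISA5's separate groups and the other members' values were added for completeness. Some genes of the lists are not reported here. Alternatives used DESeq2 1.42.0 and limma 3.58.1. The procedure was tested on simulated data. Plots were made in Python 3.11.15 (matplotlib 3.10.9).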

Additional observations from a re-analysis of the deposited data

How the results depend on the processing

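Scaling by DESeq2's size factors, its Wald test, limma-voom, dropping the filter, a minimum of 10 counts per library, library sizes without YTHDF1, and each library left out in turn gave 0 of the 54 genes with an unadjusted p under 0.05 between the vectors, the same count as reported. With 1 library left out, the lone library of a vector is assumed to vary like the others. The median log2 fold change between the vectors then ran from -0.17, without control replicate 1, to 0.21, without control replicate 2, because the remaining groups hold unequal shares of each replicate number; it was 0.13 without YTHDF1 replicate 1 and -0.13 without YTHDF1 replicate 2. The direction between vectors turned in this way for genes named in the text, with ranges of -0.025 to 0.21 for PLSCR1, -0.17 to 0.095 for IFIT1, -0.36 to 0.21 for SAMD9L, -1.09 to 0.98 for IFI44L, -1.06 to 0.84 for MX2, -0.0041 to 0.14 for IFIT2 and -0.055 to 0.14 for DDX60. The difference between numbers turned for ADAR (-0.0080 to 0.041), EIF2AK2 (-0.12 to 0.012), SHISA5 (-0.022 to 0.064) and TDRD7 (-0.00024 to 0.12), which were not called. All 26 calls between the numbers were kept in each of these settings and with the vector as a term in the model, and SAMD9L was called in addition without YTHDF1 replicate 2.

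The replicate numbers are in the labels without a meaning. The difference between numbers correlated between control and YTHDF1, at 0.875 over all genes tested and 0.984 over the 54 genes, which is a hint from the data and not from the design. With the replicate block, 0 of the 54 genes were called at an adjusted p, against 0.00562% of all genes tested called higher and 0.0394% lower. At the same fold threshold and an unadjusted p under 0.05, 0 of 54 were called, against 0.326% higher and 0.754% lower. The smallest unadjusted p of the 54 genes was 0.0524 (edgeR quasi-likelihood test with the block), so 0 were under 0.05 at any fold change. The median log2 fold change was 0.00038, and the median SE was 0.05 in place of 0.27.

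With 2 libraries a group, IFI16, MX2 and HERC5, at the lowest levels, had the largest errors between numbers.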

Other observations

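Genes of the IFN-γ response outside the list of 54 were read beside it; some of them, such as guanylate-binding proteins and IDO1, are also known to act against viruses. Of 20, the list held 15 called higher in the libraries numbered 2 and 0 lower, with a median log2 difference of 1.06. The shares over all genes tested were 9.96% called higher and 16.2% called lower. In direction alone 20 of 20 lay higher, against 8697 of the 17781 genes tested. GBP5, a guanylate-binding protein, was at 82.5 and 84.1 CPM in control and YTHDF1 replicate 1 and 335 and 332 CPM in replicate 2, 4.01-fold higher. CD74, the invariant chain of MHC class II, was at 26.9 and 25.6 CPM against 108 and 101 CPM, and IDO1, which degrades tryptophan, at 97.1 and 92.7 CPM against 266 and 263 CPM. Of the class I pathway, PSMB8 and B2M were called higher, by 1.14 and 0.51, while TAP1, NLRC5 and PSMB9 differed by 0.17, 0.12 and 0.24 and were not called. The antiviral list with its median of 0.30 and this list share the same libraries, and no test of the difference between them was made.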
